A study of Homo sapiens with 6 samples.

Results

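The 10 genes described here are genes of the circadian clock and its output, chosen by name: PER1, PER2, PER3, CRY1, CRY2, ARNTL, CLOCK, NR1D1, DBP and BHLHE40. All 10 were found once in the deposited table of 57773 genes, and all 10 were among the 22747 genes with enough reads to be tested. They were measured by RNA-seq in the human hepatocellular carcinoma line HepG2, in 3 cultures given human recombinant TGFβ1 ligand at 5 ng/mL and 3 given the vehicle alone, each for 3 h. Both groups were grown in MEM with serum and, per the study's methods, were moved to medium without serum when ligand or vehicle was added, so both share that change of medium. No allele or other agent differed between them. A single time after treatment was sampled, so the phase of a rhythm was not measured.

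The mammalian clock is a transcriptional feedback loop that runs in nearly every cell, the liver included. CLOCK and BMAL1, the protein of ARNTL, bind E-boxes as a pair and drive the period and cryptochrome genes, whose proteins return to the nucleus and block that pair. A second loop joins it: NR1D1 encodes the nuclear receptor REV-ERBα, which represses ARNTL, and receptors of the ROR family activate it. DBP is an E-box target whose protein, a PAR bZIP factor, carries the rhythm to output genes in the liver through D-boxes, and BHLHE40 (also called DEC1) is a helix-loop-helix repressor that competes for E-boxes. In other settings, period and BHLHE40 transcripts are also known to respond to signals from outside the cell.

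The reads counted on genes ranged from 60815385 to 88415362 in the vehicle libraries and from 73263662 to 100099136 in the TGFβ libraries. Counts of cultures of the same group differed beyond sampling noise, with a chi-square per gene of at least 21.4, and each culture was treated as 1 sample. TGFβ culture 3 and vehicle culture 1 lay side by side on the first principal component, at -0.765 and -1.89. The other vehicle cultures were at -31.0 or below there, and the other TGFβ cultures at 29.5 or above. On the second component, TGFβ culture 3 and vehicle culture 1 lay at opposite ends, at -43.9 and 26.3. The 10 hepatocyte markers checked, albumin among them, were expressed in all 6 libraries at a summed level of 37738 to 43837 CPM (reads scaled to library size by TMM). The known TGFβ targets PMEPA1, SKIL and SMAD7 had log2 fold changes of 4.30, 2.45 and 1.72, each past the threshold. Of the markers of other cells, the 6 fibroblast genes summed to 13.6 to 15.0 CPM with vehicle and 23.3 to 34.7 CPM with TGFβ, nearly all from COL1A1 and PDGFRB, while COL1A2, COL3A1, DCN and LUM had at most 14 reads in any library. The 6 leukocyte genes summed to 1136 to 1459 CPM with vehicle and 988 to 1087 CPM with TGFβ, nearly all from LYZ, while CD3E had 0 reads and PTPRC at most 1 read per library. The 4 endothelial genes found in the table summed to at most 0.272 CPM, and KDR had 0 reads. The part of these differences in the results below was not tested. In RNA from whole cultures, fewer cells of a type and less RNA per cell cannot be told apart.

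Of the 10 clock genes, 3 were higher with TGFβ and 0 were lower at an FDR under 0.05 (edgeR's quasi-likelihood F test, P-values adjusted by Benjamini and Hochberg's method across all 22747 genes). BHLHE40 rose most, by 3.77-fold, and NR1D1 and CRY2 rose by 1.48-fold and 1.35-fold. PER1, PER2, PER3, CRY1, ARNTL, CLOCK and DBP did not pass. Over all tested genes, 4.12% were called, 3.11% higher and 1.01% lower. The median log2 fold change was -0.06 over the 10 genes and -0.01 over all tested genes, and 4 of the 10 had a positive value. At an unadjusted P under 0.05, 3 clock genes were higher and 0 were lower, against 8.69% and 4.97% of all tested genes. DESeq2 called 3 clock genes higher and 0 lower, where it called 4.44% and 1.78% of all tested genes. The counts with limma-voom were also 3 higher and 0 lower, where 696 and 225 of all 22747 tested genes were. The count of clock genes called higher was 1 without vehicle replicate 2 or vehicle replicate 3, and 2 without TGFβ replicate 1 or TGFβ replicate 2, and BHLHE40 was among them each time. In the same order, these fits called 414, 394, 509 and 439 of all genes tested higher, against 707 with every culture.

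The promoters of the 3 genes that rose are shown first, with that of PER1, a textbook E-box target that did not pass, for comparison. Each window is RefSeq sequence of GRCh38.p14, reads 5′ to 3′ on the strand of the gene, and runs from 250 bases before to 50 bases after an annotated start. Capitals mark matches on either strand to 8 motifs: the E-box CACGTG, the E′-box CACGTT, the cAMP response element (CRE) TGACGTCA and its core TGACG, the D-boxes TTATGNAA and TTACGNAA, the ROR site AGGTCA and the SMAD box CAGAC.
BHLHE40, chr3:4979187-4979486, plus strand: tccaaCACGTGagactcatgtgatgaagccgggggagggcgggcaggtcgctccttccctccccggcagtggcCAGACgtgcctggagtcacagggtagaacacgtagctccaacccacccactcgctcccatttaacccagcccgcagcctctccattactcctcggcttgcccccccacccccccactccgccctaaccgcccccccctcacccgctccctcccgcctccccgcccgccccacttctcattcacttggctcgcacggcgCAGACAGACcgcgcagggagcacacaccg
NR1D1, chr17:40100540-40100839, minus strand: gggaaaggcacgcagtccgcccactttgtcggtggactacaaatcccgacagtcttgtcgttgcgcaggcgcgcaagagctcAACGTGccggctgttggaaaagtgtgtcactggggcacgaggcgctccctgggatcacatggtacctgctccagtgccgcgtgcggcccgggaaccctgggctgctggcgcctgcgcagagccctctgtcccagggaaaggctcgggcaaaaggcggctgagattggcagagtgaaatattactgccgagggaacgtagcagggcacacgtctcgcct
CRY2, second of its 2 windows, chr11:45847225-45847524, plus strand: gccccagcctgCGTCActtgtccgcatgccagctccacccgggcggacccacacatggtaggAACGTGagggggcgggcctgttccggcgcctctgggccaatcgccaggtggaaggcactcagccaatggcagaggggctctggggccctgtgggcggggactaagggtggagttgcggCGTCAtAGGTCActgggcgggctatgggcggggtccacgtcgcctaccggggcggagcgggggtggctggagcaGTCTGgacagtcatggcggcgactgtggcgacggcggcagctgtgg
PER1, chr17:8152355-8152654, minus strand: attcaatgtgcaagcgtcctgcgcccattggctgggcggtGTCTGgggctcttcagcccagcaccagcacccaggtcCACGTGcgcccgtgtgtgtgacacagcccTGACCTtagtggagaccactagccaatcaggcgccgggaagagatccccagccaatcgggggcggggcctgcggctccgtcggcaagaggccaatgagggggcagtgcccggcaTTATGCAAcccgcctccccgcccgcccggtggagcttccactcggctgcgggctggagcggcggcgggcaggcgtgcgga

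The BHLHE40 window held an E-box that begins at position -245 from the start and 3 SMAD boxes that begin at positions -177, 22 and 26, the last 2 of which share a base. The NR1D1 window held a single match, an E′-box on the opposite strand at position -168, and no SMAD box. The second CRY2 window, shown above, held an E′-box at -188, CRE cores at -239 and -70, a ROR site at -64 and a SMAD box at position 5. The first CRY2 window, not shown, held a CRE core at -85 and a ROR site at -62, and no E′-box or SMAD box. The PER1 window held an E-box at -173, a D-box at -30, a ROR site at -144 and a SMAD box at -210. Of 34943 RefSeq promoter windows of this length, 7.23% held the E-box, 5.35% the E′-box, 1.84% the full cAMP response element, 24.5% its core, 3.31% TTATGNAA, 0.681% TTACGNAA, 13.8% the ROR site and 45.3% the SMAD box.

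Among the 10 clock genes, 2 had an E-box, 5 an E′-box and 5 a SMAD box in at least 1 window. The 5 with a SMAD box were PER1, CRY2, ARNTL, CLOCK and BHLHE40, of which CRY2 and BHLHE40 rose. In CRY2 and in ARNTL it was found in only 1 of the 2 windows. A D-box was found at PER1, PER2 and PER3, and a ROR site at PER1, CRY2 and ARNTL. In PER2 the D-box TTACGTAA reads the same on both strands and begins at position -3. The DBP window held 0 matches to any of the 8 motifs. PER3, CRY2, ARNTL and CLOCK have 2 annotated windows each, so each had 2 windows in which a motif could match. The shares of all promoters given above are per window and not per gene. A match describes letters in the window and is not a bound site.

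**Figure D1:**
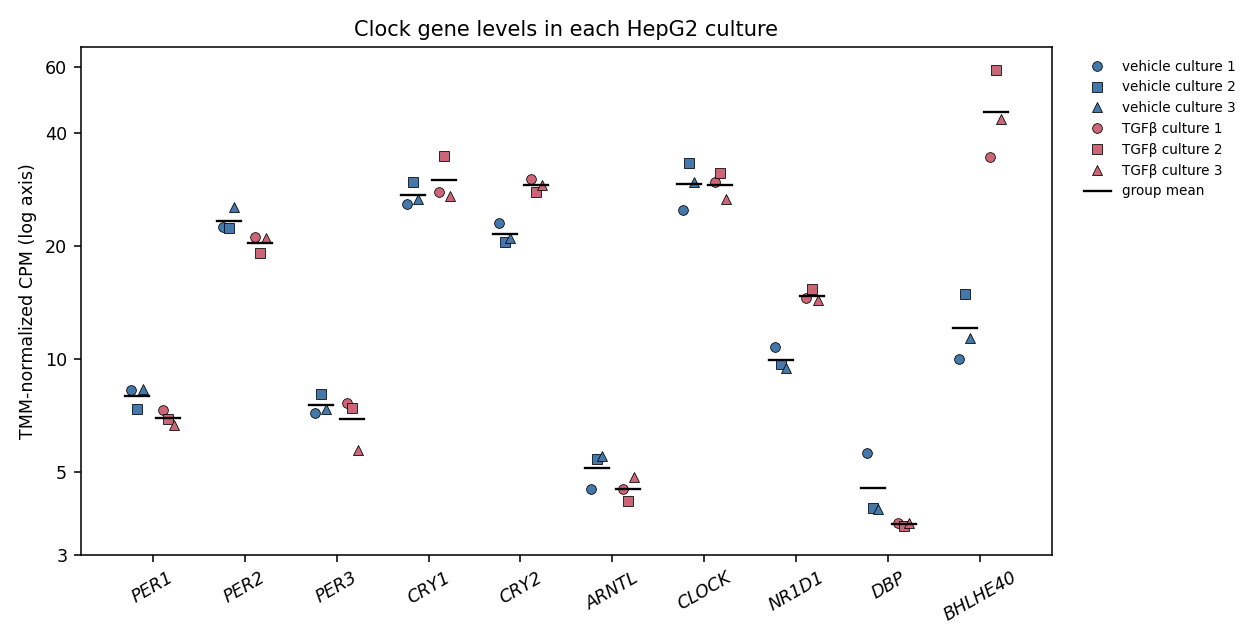
Level of each clock gene in each culture, as TMM-normalized CPM on a log axis, with vehicle in blue, TGFβ in red, a marker shape for each culture number and a black bar for the group mean (n = 3). BHLHE40, NR1D1 and CRY2 had their 3 TGFβ points above their 3 vehicle points, and PER1, PER2 and DBP had theirs below.

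BHLHE40 (ENSG00000134107, chromosome 3, 5020801 to 5027008, plus strand, all positions in hg19) encodes the E-box repressor DEC1. It was at 9.98, 14.9 and 11.4 CPM in vehicle cultures 1, 2 and 3, and at 34.6, 58.7 and 43.4 CPM in TGFβ cultures 1, 2 and 3. The groups did not overlap, and culture 2 was the highest and culture 1 the lowest in each of them. The means were 12.1 ± 2.54 CPM with vehicle and 45.6 ± 12.2 CPM with TGFβ (SD, n = 3), a log2 fold change of 1.91 (standard error 0.20, 95% interval 1.47 to 2.36, edgeR FDR 0.000605). It ranked 111 by P among the tested genes. Within the numbered pairs the difference in log2 CPM was 1.79, 1.98 and 1.93, a narrower spread than that of the cultures of either group. With the replicate number as a block the 95% interval of the log2 fold change narrowed to 1.76 to 2.04. BHLHE40 stayed past the threshold without any single culture, at log2 fold changes from 1.68 to 2.09.

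The 5′ end of BHLHE40 overlaps BHLHE40-AS1, a long noncoding RNA gene on the opposite strand. The 2 share 451 exon bases in GENCODE, 12.8% of the exon bases of BHLHE40 and 8.40% of those of the antisense gene. BHLHE40-AS1 had 70 reads over the vehicle cultures and 234 over the TGFβ cultures, and also passed the threshold (log2 fold change 1.61, standard error 0.26, edgeR FDR 0.00741). Whether strand was used in counting is not given in the sources used here, so reads of this gene and of BHLHE40 cannot be told apart where they overlap. BHLHE40 itself had 700 to 1235 reads per vehicle culture and 3163 to 4725 per TGFβ culture. The log2 ratio of BHLHE40 to BHLHE40-AS1 was 5.19 ± 0.31 with vehicle and 5.54 ± 0.36 with TGFβ (SD, n = 3, exact permutation test, two-sided, P = 0.4, adjusted P = 0.5), 1 of 4 such ratios chosen after the values were seen.

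NR1D1 (ENSG00000126368, chromosome 17, 38249040 to 38256978, minus strand) encodes REV-ERBα, the repressor of ARNTL. It was at 10.7, 9.67 and 9.44 CPM in vehicle cultures 1, 2 and 3, and at 14.5, 15.3 and 14.3 CPM in the TGFβ cultures. The groups did not overlap, and both were tight. The log2 fold change was 0.56 (standard error 0.10, 95% interval 0.34 to 0.79, edgeR FDR 0.0106), and the differences within the numbered pairs were 0.43, 0.66 and 0.60. NR1D1 missed the threshold without vehicle replicate 2 (FDR 0.0604), vehicle replicate 3 (FDR 0.0651) or TGFβ replicate 2 (FDR 0.0600), at log2 fold changes between 0.52 and 0.54.

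NR1D1 lies tail to tail with THRA, the thyroid hormone receptor α gene, on the opposite strand. In GENCODE they share 473 exon bases, which are 18.0% of those of NR1D1 and 6.45% of those of THRA. THRA rose too, from 30.8 to 48.6 CPM (log2 fold change 0.66, standard error 0.11, edgeR FDR 0.00838). The log2 ratio of NR1D1 to THRA was -1.62 ± 0.12 with vehicle and -1.72 ± 0.14 with TGFβ (SD, n = 3, exact permutation test, two-sided, P = 0.5, adjusted P = 0.5, also chosen afterwards). It was lower with TGFβ in 3 of 3 numbered pairs, with differences of -0.11, -0.07 and -0.12 (exact sign-flip test, two-sided, P = 0.25, the smallest that 3 pairs allow). The nearest tested gene on the other side of NR1D1, MSL1, 21572 bases away, rose from 152.6 to 240.1 CPM (log2 fold change 0.65, FDR 0.000458). The adjacent tested gene on the side of THRA did not pass. The share of NR1D1 reads that come from THRA transcripts was not tested.

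CRY2 (ENSG00000121671, chromosome 11, 45868669 to 45904798, plus strand) encodes a cryptochrome, one of the proteins that block CLOCK and BMAL1. It was at 23.1, 20.5 and 21.0 CPM with vehicle and at 30.2, 27.7 and 29.1 CPM with TGFβ in cultures 1, 2 and 3. The lowest TGFβ culture was above the highest vehicle culture. The log2 fold change was 0.43 (standard error 0.08, 95% interval 0.24 to 0.61, edgeR FDR 0.0167), and the differences within the numbered pairs, 0.39, 0.43 and 0.47, were close to each other. No gene of the table overlaps CRY2, and neither of the adjacent tested genes passed. CRY2 missed the threshold without vehicle replicate 2 (FDR 0.0905 on a log2 fold change of 0.39), and its FDR was 0.0929 without vehicle replicate 3 and 0.0804 without TGFβ replicate 1.

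**Figure D2:**
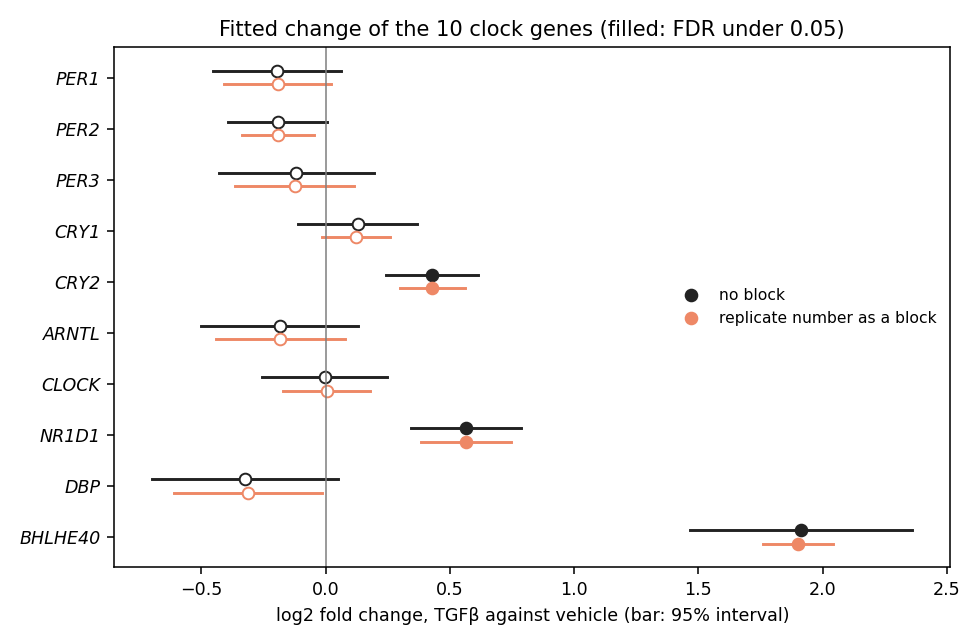
Log2 fold change of each clock gene, TGFβ against vehicle (points), with its 95% interval (bars) from edgeR without a block in black and with the replicate number as a block in orange, filled where the FDR was under 0.05. BHLHE40, NR1D1 and CRY2 were filled in both fits, and the black bars of the other 7 genes included 0.

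CRY1 (ENSG00000008405, chromosome 12, 107385142 to 107487607, minus strand), the other cryptochrome, did not pass. It was at 25.8, 29.5 and 26.7 CPM with vehicle and at 27.8, 34.7 and 27.2 CPM with TGFβ, so the groups overlapped, and TGFβ culture 2 stood above the other 5. The log2 fold change was 0.13 (95% interval -0.11 to 0.37, edgeR FDR 0.726), and it was -0.00 without TGFβ replicate 2. CRY2 passed where CRY1 did not, and the difference between them was tested as their log2 ratio in each culture. The ratio of CRY1 to CRY2 was 0.34 ± 0.18 with vehicle and 0.04 ± 0.25 with TGFβ (SD, n = 3), a difference of -0.31 that did not pass (exact permutation test, two-sided, P = 0.2, adjusted P = 0.467 over the 7 ratios compared). Within the numbered pairs the ratio differed by -0.28, -0.20 and -0.44, lower with TGFβ in 3 of 3 (exact sign-flip test, two-sided, P = 0.25). With 3 cultures a group, the permutation test cannot go below 0.1 and the sign-flip test cannot go below 0.25, so neither could have passed. BTBD11, the tested gene adjacent to CRY1 at a distance of 224582 bases, rose (log2 fold change 0.71, FDR 0.00221).

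The 3 period genes encode the partners of the cryptochromes in the repressor complex, and none of them passed. PER1 (ENSG00000179094, chromosome 17, 8043790 to 8059824, minus strand) was at 8.27, 7.34 and 8.30 CPM with vehicle and at 7.31, 6.91 and 6.65 CPM with TGFβ. Its groups did not overlap, though the highest TGFβ culture was only just under the lowest vehicle culture, and the log2 fold change was -0.20 (95% interval -0.45 to 0.06, edgeR FDR 0.558). PER2 (ENSG00000132326, chromosome 2, 239152679 to 239198743, minus strand) was at 22.4, 22.3 and 25.3 CPM with vehicle and at 21.1, 19.2 and 21.0 CPM with TGFβ. Again every TGFβ culture was the lower, by a small margin, with a log2 fold change of -0.19 (95% interval -0.39 to 0.00, edgeR FDR 0.385). With the replicate number as a block the interval of PER2 was -0.34 to -0.05, and its FDR of 0.0935 still missed the threshold.

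PER3 (ENSG00000049246, chromosome 1, 7844380 to 7905237, plus strand) was at 7.17, 8.06 and 7.32 CPM with vehicle and at 7.63, 7.41 and 5.72 CPM with TGFβ. Only TGFβ culture 3 stood below the vehicle range. The log2 fold change was -0.12 (95% interval -0.43 to 0.19, edgeR FDR 0.819), and it was -0.01 without TGFβ replicate 3. The ratios among the 3 period genes had differences of mixed sign over the numbered pairs. The difference in log2 ratio, TGFβ minus vehicle, was -0.00 for PER1 to PER2 (exact permutation test, two-sided, P = 1), -0.06 for PER1 to PER3 (exact P = 1) and -0.06 for PER2 to PER3 (exact P = 0.7, adjusted P = 0.98). PER3 overlaps UTS2 and RP3-467L1.4 on the opposite strand, PER1 overlaps RP11-599B13.6 on its own strand, and PER2 overlaps AC096574.4 and AC012485.1. AC012485.1 had 1 read in all, and none of the others passed.

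CLOCK and ARNTL, which encode the activator pair, did not pass either. CLOCK (ENSG00000134852, chromosome 4, 56294070 to 56413305, minus strand) was at 24.9, 33.2 and 29.5 CPM with vehicle and at 29.6, 31.2 and 26.6 CPM with TGFβ. The TGFβ range lay inside the vehicle range, and the log2 fold change was -0.00 (95% interval -0.26 to 0.25, edgeR FDR 0.992). ARNTL (ENSG00000133794, chromosome 11, 13298199 to 13408813, plus strand) was at 4.50, 5.39 and 5.49 CPM with vehicle and at 4.49, 4.19 and 4.84 CPM with TGFβ. Vehicle culture 1 fell among the TGFβ values, and the log2 fold change was -0.19 (95% interval -0.50 to 0.13, edgeR FDR 0.690). For ARNTL to CLOCK the log2 ratio moved by -0.18 (exact permutation test, two-sided, P = 0.3, adjusted P = 0.525), and was lower in 3 of 3 numbered pairs, with differences of -0.25, -0.27 and -0.03. CLOCK overlaps TMEM165 (log2 fold change 0.17, FDR 0.460) and RP11-528I4.2, CRY1 overlaps RP11-797M17.1, and none of these passed. CLOCK also overlaps Y_RNA and RN7SKP30, and ARNTL overlaps RN7SKP151, all of which had too few reads to be tested.

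DBP (ENSG00000105516, chromosome 19, 49133287 to 49140695, minus strand), the output factor, was at 5.61, 4.01 and 3.98 CPM with vehicle and at 3.64, 3.58 and 3.65 CPM with TGFβ. The groups did not overlap, and vehicle culture 1 stood well above the other 5. The log2 fold change was -0.32 (standard error 0.17, 95% interval -0.70 to 0.05, edgeR FDR 0.471), and it was -0.15 without vehicle replicate 1. With the replicate number as a block its interval was -0.61 to -0.01 and its FDR 0.191, and at an unadjusted P under 0.05 this fit had 2 clock genes lower, PER2 and DBP, and 9.80% of all tested genes. DBP shares 661 exon bases, 10.2% of its own, with SPHK2 on the opposite strand, which had a log2 fold change of -0.16 (FDR 0.533).

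In all, 3 clock genes had TGFβ values wholly above the vehicle range, 3 had them wholly below (PER1, PER2 and DBP) and 4 overlapped. Among all tested genes, 10.4% did not overlap on the higher side and 8.23% on the lower side. Cultures of the same number were treated as pairs, and within the 3 pairs CRY1, CRY2, NR1D1 and BHLHE40 were higher with TGFβ in 3 of 3, PER1, PER2, ARNTL and DBP were lower in 3 of 3 (ARNTL at -0.00 in pair 1), and PER3 and CLOCK were mixed. The same held in 3 of 3 pairs for 23.3% of tested genes on the higher side and for 20.9% on the lower side. CRY2 had the narrowest spread of paired differences, from 0.39 to 0.47. DBP had the widest, with -0.62, -0.16 and -0.12 for numbers 1, 2 and 3.

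**Figure D3:**
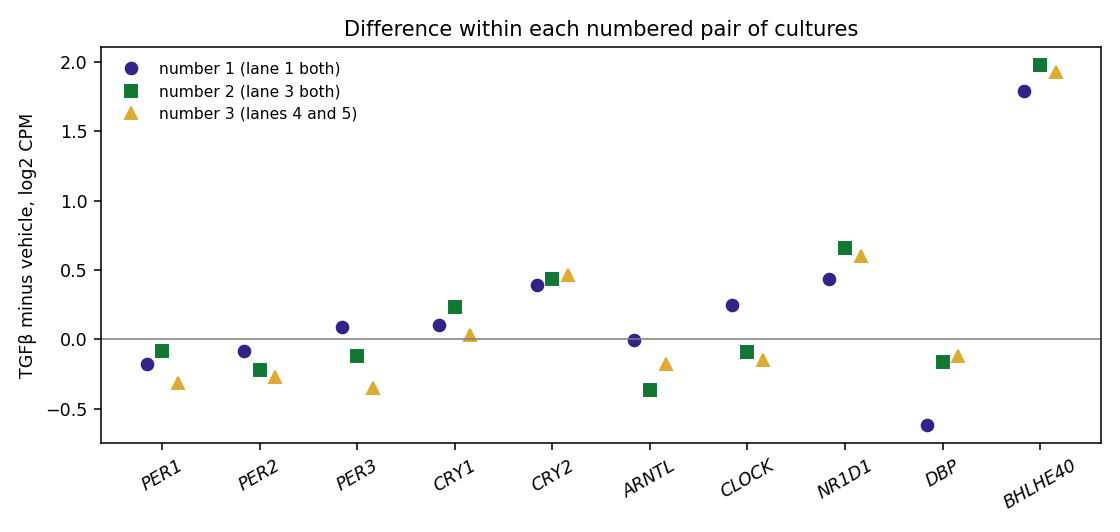
Log2 CPM of TGFβ minus vehicle for each clock gene within the 3 numbered pairs of cultures, with 1 marker per pair and a line at 0. The differences for BHLHE40 lay between 1.79 and 1.98, and those of PER1, PER2, ARNTL and DBP were all at or below 0.

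Levels of different genes were compared per length, as the deposited RPKM, which scales reads by gene length and library size. With vehicle the order of mean RPKM was CRY1 (4.47 ± 0.420, SD, n = 3), NR1D1 (2.96 ± 0.190), CRY2 (2.87 ± 0.145), PER2 (2.81 ± 0.179), BHLHE40 (2.61 ± 0.612), CLOCK (2.06 ± 0.336), PER1 (0.940 ± 0.0437), PER3 (0.773 ± 0.0671), ARNTL (0.630 ± 0.0738) and DBP (0.572 ± 0.111). CRY1 stood above all others. The ranges of each neighboring pair from NR1D1 down to CLOCK overlapped, as did those of ARNTL and DBP, while PER1 and PER3 each stood apart from the gene on either side. With TGFβ, BHLHE40 was first at 9.59 ± 2.79 RPKM, ahead of CRY1 at 4.77 ± 0.810, NR1D1 at 4.27 ± 0.290 and CRY2 at 3.77 ± 0.169. The order of the other genes was as with vehicle, from PER2 at 2.39 ± 0.0897 RPKM down to DBP at 0.446 ± 0.0121 RPKM. BHLHE40 thus went from the middle of the list to its head.

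Beside the 10 genes, 36 other genes of the clock were examined, and 32 had enough reads to be tested. This list was chosen with earlier results of these data known. Its counts beside the shares of all genes are therefore a description and not a test of the clock as a set. At an FDR under 0.05, 4 were higher (KLF10, PRKAA2, WEE1 and FBXL21) and 5 were lower (USP2, PPARGC1A, HLF, TEF and NFIL3), where 3.11% and 1.01% of all tested genes were. The median log2 fold change of the 32 was -0.04. With the replicate number as a block, 9 were higher and 8 were lower, while the block called 8.08% of all tested genes higher and 3.75% lower.

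The other PAR bZIP genes, TEF and HLF, encode the factors most like DBP, and both fell. HLF was at 343.5, 353.0 and 359.5 CPM with vehicle and at 239.6, 214.4 and 210.6 CPM with TGFβ (log2 fold change -0.67, standard error 0.07, edgeR FDR 0.000888). TEF was at 12.4, 11.3 and 11.5 CPM with vehicle and at 8.41, 6.95 and 7.35 CPM with TGFβ (log2 fold change -0.63, standard error 0.11, edgeR FDR 0.0121). Neither overlapped between groups. NFIL3, a repressor that binds the same D-boxes, fell too, from 57.2 to 73.6 CPM with vehicle to 37.2 to 49.2 CPM with TGFβ (log2 fold change -0.59, FDR 0.0237). HLF stayed past the threshold without any single culture, TEF in 4 of 6 and NFIL3 in 3 of 6 such fits. DBP missed the threshold where HLF and TEF passed, and the difference was looked at as its ratio to each. The log2 ratio of DBP to HLF moved by 0.37 and that of DBP to TEF by 0.33 (exact permutation test, two-sided, P = 0.2 and adjusted P = 0.4 for each, also chosen afterwards), and each was higher in 2 of 3 numbered pairs.

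Of the 10 genes listed as core partners, 8 were tested and 0 passed in edgeR without the block. At an unadjusted P under 0.05 in that fit, 1 was higher and 2 were lower, where 8.69% and 4.97% of all tested genes were. With the replicate number as a block, edgeR called 1 higher and 2 lower, where it called 8.08% and 3.75% of all tested genes. DESeq2 called 0 higher and 2 lower, where it called 4.44% and 1.78% of all tested genes. With limma-voom 0 were called, where 696 of the 22747 tested genes were called higher and 225 lower. NR1D2, which encodes REV-ERBβ, had 17.7 ± 1.63 CPM with vehicle and 15.5 ± 2.95 CPM with TGFβ (SD, n = 3), a log2 fold change of -0.19 (FDR 0.675). The log2 ratio of NR1D1 to NR1D2 was -0.83 ± 0.10 with vehicle and -0.06 ± 0.27 with TGFβ, with all 3 TGFβ cultures above the vehicle range. Its exact permutation P of 0.1, two-sided, is the smallest that 3 cultures against 3 allow, and it was 0.35 after adjustment over the 7 ratios. Within the numbered pairs the ratio was higher by 0.50, 0.84 and 0.97 (exact sign-flip test, two-sided, P = 0.25, the smallest possible).

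RORA, an activator of ARNTL, was at 9.16, 9.26 and 9.14 CPM with vehicle and at 7.61, 6.14 and 5.43 CPM with TGFβ. The groups did not overlap, and the log2 fold change of -0.52 had an FDR of 0.0770, or 0.00811 with the replicate number as a block. NPAS2, which can stand in for CLOCK, had a log2 fold change of 0.28 (FDR 0.192, or 0.00866 with the block), from 56.5 ± 6.15 to 68.4 ± 5.11 CPM. For CLOCK to NPAS2 the log2 ratio moved by -0.28 (exact permutation test, two-sided, P = 0.1, adjusted P = 0.35), with -0.17, -0.30 and -0.36 in the numbered pairs. ARNTL2, a relative of ARNTL, had a log2 fold change of -0.01 (FDR 0.987). BHLHE41, the relative of BHLHE40, had only 4 to 14 reads per culture and was not tested, so the 2 could not be compared.

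Of the 13 genes that act on the turnover of clock proteins, all were tested, 2 were higher and 1 was lower, where 3.11% and 1.01% of all tested genes were. USP2, a deubiquitinase, fell from 16.8, 17.2 and 16.9 CPM with vehicle to 10.2, 8.35 and 8.03 CPM with TGFβ (log2 fold change -0.94, standard error 0.11, edgeR FDR 0.00140). PRKAA2, a catalytic subunit of the kinase AMPK, rose from 35.8, 42.9 and 30.9 to 61.6, 80.7 and 52.6 CPM (log2 fold change 0.83, edgeR FDR 0.0176), and passed in 2 of the 6 fits that leave out a culture. FBXL21, named for an F-box protein, rose by 0.46 on the log2 scale (FDR 0.0452) and passed in 1 of 6 such fits. Current symbols list it as FBXL21P, a pseudogene, so its reads are uncertain. With the block, the period kinase genes CSNK1D (FDR 0.0447) and CSNK1E (FDR 0.0290) and the deacetylase gene SIRT1 (FDR 0.0337) were among those also higher. Their log2 fold changes with the block were between 0.18 and 0.24.

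Of the 13 output genes, 11 were tested, 2 were higher and 4 were lower, against the same 3.11% and 1.01%. KLF10, also known as a TGFβ-inducible early gene, was at 14.7, 15.5 and 12.9 CPM with vehicle and at 39.0, 46.6 and 39.0 CPM with TGFβ (log2 fold change 1.53, standard error 0.10, edgeR FDR 5.03e-05). WEE1, a kinase that holds back entry into mitosis, was at 83.6, 57.7 and 78.6 CPM with vehicle and at 133.9, 117.8 and 128.7 CPM with TGFβ (log2 fold change 0.79, edgeR FDR 0.00681). PPARGC1A, a coactivator of liver metabolism genes, fell from 21.1, 25.3 and 21.0 to 14.0, 13.8 and 12.3 CPM (log2 fold change -0.75, edgeR FDR 0.00331). All 3 stayed past the threshold without any single culture. PPARA had a log2 fold change of -0.28 (FDR 0.132, or 0.00747 with the block). Over the 32 tested genes, 6 lay higher in every TGFβ culture, 9 lay lower and 17 overlapped, where 10.4% of all tested genes lay higher and 8.23% lower.

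**Figure D4:**
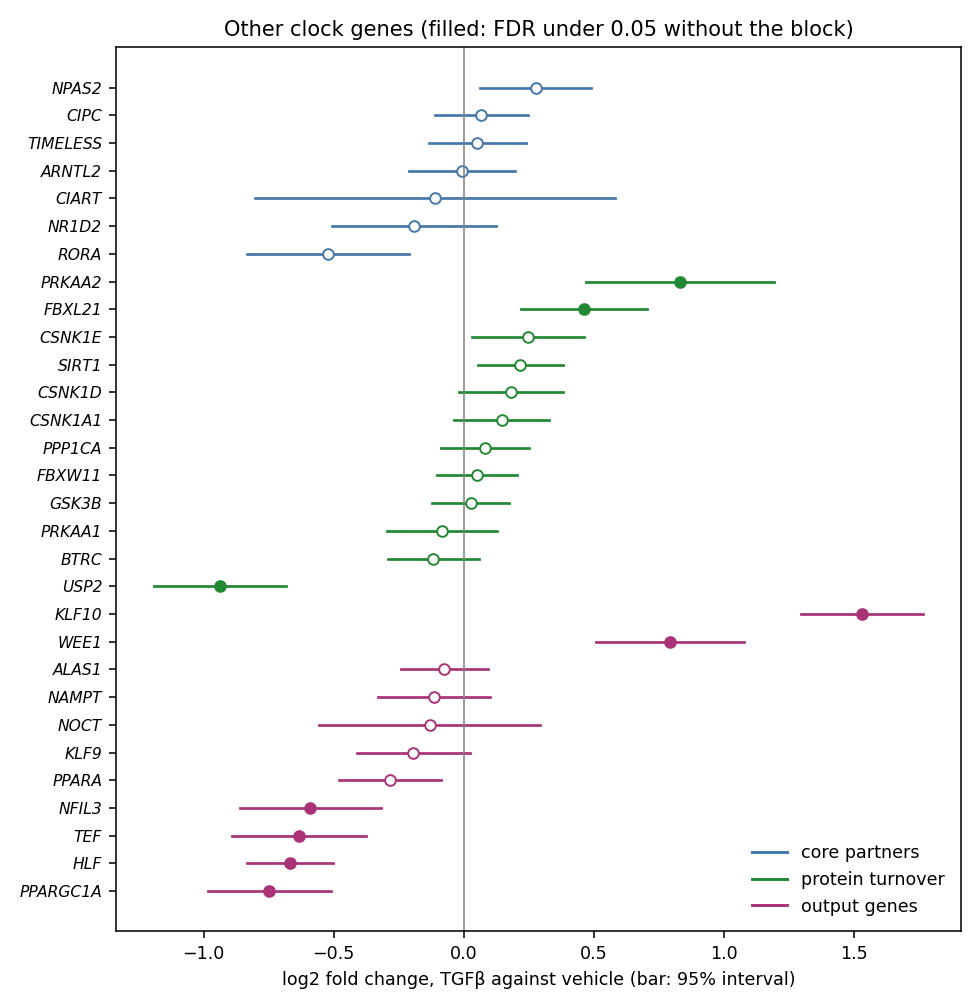
Log2 fold change with its 95% interval for other tested genes of the clock, grouped as core partners, turnover and output, with filled points where the edgeR FDR was under 0.05. KLF10 lay farthest to the right at 1.53 and USP2 farthest to the left at -0.94.

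**Figure D5:**
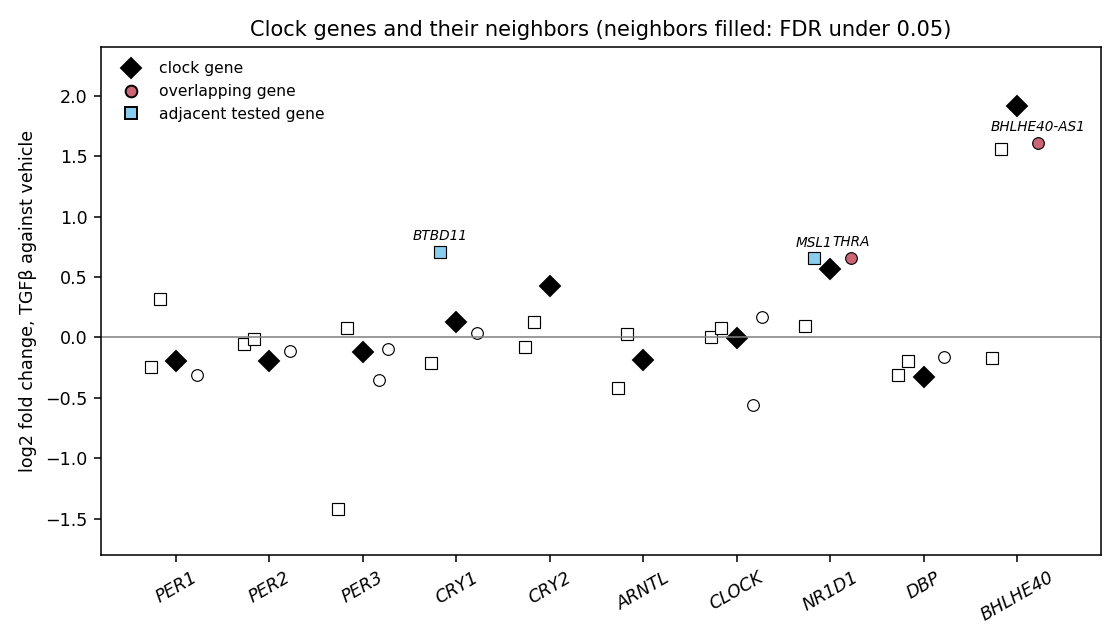
Log2 fold change, TGFβ against vehicle, of each clock gene (black diamonds), of the tested genes that overlap it (circles) and of the adjacent tested genes (squares), with neighbors filled where the edgeR FDR was under 0.05. The filled neighbors were THRA at 0.66 and MSL1 at 0.65 beside NR1D1, BHLHE40-AS1 at 1.61 beside BHLHE40 and BTBD11 at 0.71 beside CRY1.

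The genes whose log2 CPM over the 6 cultures was most like that of BHLHE40, of 15898 genes with a mean of at least 1 CPM, included SMURF2 (Pearson r = 0.996), MBLAC1 (0.994), VMP1 (0.994) and SLC2A3 (0.994). SMURF2 encodes a ubiquitin ligase of the TGFβ pathway and SLC2A3 a glucose transporter. There were 253 genes with r over 0.95. These 6 points share libraries and the split into groups, so the values are a description. None of the 10 was called lower, and the one with the smallest FDR among those with a negative fold change, PER2, was most like genes that included FAM46A (r = 0.998), SNHG16 (0.994), DHODH (0.991) and SRSF8 (0.988), with 71 genes over 0.95.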

How the data were processed

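Libraries were made from poly(A) RNA of 6 HepG2 cultures and read as paired 51-base reads. The submitters' processing notes name bcl2fastq, TopHat2 2.0.6, HTSeq and hg19. The authors deposited 1 table with the raw count of reads per gene for each culture, without normalization, and the RPKM computed from it by the authors with a coding length per gene. For the annotation release and the strand setting, nothing was given in the sources used here. No per-sample column was left out.

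Counts were tested with edgeR 4.0.16 (limma 3.58.1, R 4.3.3): genes were filtered by filterByExpr, libraries were scaled by TMM, and the quasi-likelihood F test was run with treatment as its single term. P-values were adjusted across the 22747 genes by Benjamini and Hochberg's method. An FDR under 0.05 was called. Log2 CPM for ratios and pairs used a prior count of 2. Standard errors were derived from F. RPKM served only to order levels. Ratios of related genes were compared with exact permutation tests, two-sided, which cannot give a P below 0.1 with 3 cultures against 3. Their differences within numbered pairs were given an exact sign-flip test, added after the values were seen, which cannot go below 0.25. The labels give numbered cultures of 1 line, so P-values measure the spread between these cultures, which may be technical.

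The genes and lists were chosen with earlier results of these data known. Named were all 10 clock genes, the other clock genes that passed or whose call changed with the block, NR1D2, NPAS2, RORA, BHLHE41 and ARNTL2, TGFβ targets, overlapping genes, adjacent genes that passed, and the 5 genes most like the clock gene of smallest FDR in each direction. Some genes that this rule names are not reported here. Replicate numbers were taken to pair the cultures. The reason was that cultures with 1 number deviated together from the means of their groups (r across genes 0.366, 0.227 and 0.316). Between different numbers r was at most 0.0101. Deviations from a group mean cancel out within the group, so positive r within numbers by itself lowers r between them, and the second value adds little. By the labels, numbers 1 and 2 shared a lane within each pair, and number 3 did not. Alternatives were other size factors, total-count scaling, other filters, DESeq2 1.42.0, limma-voom, the block, another prior count and leaving out each culture. The steps were tested on simulated counts in which 200 genes were changed. Without the block, 95.6% of the 4-fold, 63.1% of the 2-fold and 32.8% of the 1.5-fold changes were called. Of the calls, 12.9% fell on unchanged genes, and 0 genes were called when none was changed. Promoters came from RefSeq (GRCh38.p14), matched by symbol for all 10 genes, and exon overlaps from GENCODE on GRCh37.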

Additional observations from a re-analysis of the deposited data

How the results depend on the processing

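Among the 10 clock genes, the 3 calls higher and 0 lower were the same with other size factors, total-count scaling, other filters, DESeq2, limma-voom and the replicate block. Leaving out each culture gave 1 to 3 called higher, 1 without vehicle replicate 2 or 3, and 0 lower each time. BHLHE40 passed under every alternative run, though with no filter its FDR was 0.0436, close to the threshold, against 0.000605 in the main fit. Of the other clock genes, the replicate block called 9 higher and 8 lower, and leaving out each culture called 2 to 4 higher and 3 to 6 lower. Over all tested genes, the block called 1837 higher and 853 lower against 707 and 230, DESeq2 called 406 lower, no filter 366 lower, and leaving out each culture 394 to 778 higher and 91 to 220 lower. The block changed no call among the 10 clock genes. The difference between groups in the log2 ratio of PER1 to PER2 ranged from -0.0417 to 0.0556 when each culture was left out, and turned positive without vehicle replicate 1 (0.0556) or TGFβ replicate 3 (0.0515). That of PER2 to PER3 ranged from -0.215 to 0.0364, and turned positive without vehicle replicate 3 (0.0147) or TGFβ replicate 2 (0.0364). The cause was not tested. The log2 fold changes of named genes kept their side of the threshold in 392 refits, lost it in 23 and gained it in 13. The 95% intervals of the 7 clock genes that did not pass each include 0, and together reach from -0.70 for DBP to 0.37 for CRY1. For each of these genes, a change inside its own interval remains compatible with the counts.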
